A study of Mus musculus with 12 samples.

Results

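The genes described here encode proteasome subunits and molecular chaperones in mouse skin. They were found by their symbols (Psma to Psmg with a number, Hsp, Dnaj, Cct, Bag and Pdia families, Canx and Calr), and 68 of the 7902 genes in the deposited tables matched. Of 148 protein-coding genes of the reference annotation with such symbols, the other genes, among them Hspa5, Hsp90b1, Hspd1, Canx and Calr, were not analysed here. By known role, the 68 genes were 12 of the proteasome, 38 cytosolic chaperones and their helpers, 4 mitochondrial chaperones, 4 of the endoplasmic reticulum (ER), 7 J proteins with other duties, and 3 that share only the letters of the symbol (Hspg2, Psmc3ip and Hspbap1). Of these, 67 passed edgeR's filter on low counts and were tested. The exception was Bag6, whose rounded count was 0 in all Model and Ctrl libraries.

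Bulk RNA sequencing covered 12 skin samples in 3 groups of 4. The M+NSPCC1 group had the ageing model and received NSPCC1, a grape seed extract. The Model group had skin ageing induced with D-galactose and UVA and UVB light, and the Ctrl group was control skin. The labels give no strain, age, sex, dose, duration or body site, and they do not state that each sample is from its own animal. The p-values therefore reflect sample-to-sample spread that may be technical.

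The proteasome is the barrel-shaped protease that degrades ubiquitin-tagged proteins. Its core is made of alpha and beta rings, its cap unfolds the substrate with ATPase subunits, and in immune cells and under interferon its catalytic beta subunits are exchanged for inducible ones, which alters the peptides made for antigen presentation. Chaperones help proteins fold: HSP70 works with J proteins, which deliver substrates and stimulate its ATPase, and with exchange factors of the HSP110 and BAG families, while the CCT chaperonin folds actin and tubulin inside a closed ring. Many cytosolic chaperone genes are driven by the heat shock factor HSF1, which binds inverted repeats of GAA in their promoters, and ER chaperones by the unfolded protein response.

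Promoter sequences from RefSeq (build GRCm38.p6) were available for 57 of the 68 genes and were searched over the 250 bases before each start. For 58 of the 75 entries of these genes, the first 25 bases after the start stood in a GENCODE transcript of the gene. For the windows shown from Cct5, Dnaja1, Dnajc27 and Dnajc3 they did not, so the starts used there are less certain. The letters GAANNTTC or TTCNNGAA, the smallest pair of heat shock element units on either strand, stood in 11 of these 57 genes (19.3%) and in 14.5% of 27025 genes in the promoter table. They occurred in genes that moved both ways against Ctrl, in 5 of 24 members higher in Model with a promoter entry and in 6 of 26 members lower in Model. Shown first are windows from the 5 genes that were higher, with the match in capitals: Cct2 at chr10:117063399-117063428 (minus strand), Cct5 at chr15:31601862-31601891 (minus strand), Dnaja1 at chr4:40722333-40722362 (plus strand), Dnajb6 at chr5:29735841-29735870 (plus strand), Psme3 at chr11:101315963-101315990 (plus strand). Dnajb6 holds a second match that overlaps the end of the one shown.
Cct2: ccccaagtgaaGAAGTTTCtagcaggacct
Cct5: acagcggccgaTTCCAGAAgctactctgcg
Dnaja1: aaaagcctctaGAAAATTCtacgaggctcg
Dnajb6: ctcagctccgaGAATCTTCcggaacgctag
Psme3: cgcctactcTTCCAGAAgccccggcaca

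The 6 genes that were lower in Model hold the same letters, shown here from Dnaja4 at chr9:54699458-54699487 (plus strand), Dnajb4 at chr3:152193846-152193870 (minus strand), Hspb3 at chr13:113663882-113663911 (minus strand), Hspb6 at chr7:30553170-30553199 (plus strand), Dnajc27 at chr12:4082350-4082379 (plus strand), Psmb9 at chr17:34187506-34187535 (minus strand). Dnaja4 has a second match closer to its start.
Dnaja4: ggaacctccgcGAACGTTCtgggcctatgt
Dnajb4: ttcgttcgctgTTCTAGAAagtaca
Hspb3: ctccccgaatgGAATTTTCaggcagaggga
Hspb6: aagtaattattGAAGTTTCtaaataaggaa
Dnajc27: cacccatcggtGAAGATTCcaggaaaaaaa
Psmb9: cttgcttgcgtGAATTTTCccatcccaggc

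A pair of other promoter windows belong to genes described below. Psmb8 holds a gamma-activated site (TTCNNNGAA on either strand, in 8.13% of the genes in the promoter table), a motif bound by STAT factors, in the window chr17:34198088-34198116 (plus strand). The same letters stood in 4 of the 57 members (7.02%), Cct5 and Dnajc7, which were higher in Model, and Dnajc27 and Psmb8, which were lower. Dnajc3 holds the ER stress element (CCAAT and CCACG with 9 bases between them, searched on both strands, in 0.13% of genes) in chr14:118937822-118937850 (plus strand). Each match describes letters only.
Psmb8: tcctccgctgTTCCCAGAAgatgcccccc
Dnajc3: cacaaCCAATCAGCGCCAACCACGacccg

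The summed estimated counts ran from 9717338 to 10952623 per library over the 7902 genes. Counts were scaled to a common library size (CPM) with TMM factors, and a gene was called at a Benjamini-Hochberg adjusted p under 0.05 by edgeR's quasi-likelihood test. Most deposited transcripts differed from Ctrl (96.8% of 10171 tested transcripts in at least 1 comparison with it), so a call against Ctrl is common for any gene in them. Epidermal genes marked the tissue as skin: 3 of 8 fixed markers were in the files (Krt5, Krt10 and Flg). Their summed levels were 4760 to 7469 CPM in M+NSPCC1, 4550 to 8559 CPM in Model and 6659 to 8916 CPM in Ctrl libraries. The 3 markers did not move together. In Model against Ctrl Krt10 was lower (log2 fold change -1.82), and Krt5 (0.72) and Flg (0.48) were higher, all of them called. Library Model 03 was the Model library nearest to Ctrl in 41 of 59 members called in Model against Ctrl, and in 72.5% of all genes called there. The spread between libraries, as the median SD of log2 CPM over 61 members, was 0.118 in M+NSPCC1, 0.192 in Model and 0.124 in Ctrl.

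In Model against Ctrl skin, 29 of the 67 tested genes were higher, 30 were lower and 8 were not called. Over all 7638 tested genes 49.1% were higher and 41.4% were lower, so the share of called members is close to that of the tables as a whole. The members had a median log2 fold change of 0.07, beside 0.25 over all tested genes. The Model and Ctrl libraries did not overlap in 20 members that were higher and in 29 that were lower, against 43.2% and 39.8% of all tested genes. For M+NSPCC1 against Ctrl, which shares the Ctrl libraries with the first comparison, 28 were higher, 30 lower and 9 not called, beside 50.1% and 43.1% of all tested genes, with a median of 0.14 beside 0.27. In that comparison 30 members were higher and 30 lower without overlap, beside 47.4% and 42.5% of all tested genes. The count of higher members depended on the scaling: with DESeq2's size factors, which moved the median of all genes in Model against Ctrl to 0.08, 18 members were higher and 30 lower, and with whole-library depth, which moved it to 0.43, 34 were higher and 29 lower. Small rises are therefore read below against that median.

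**Figure D1:**
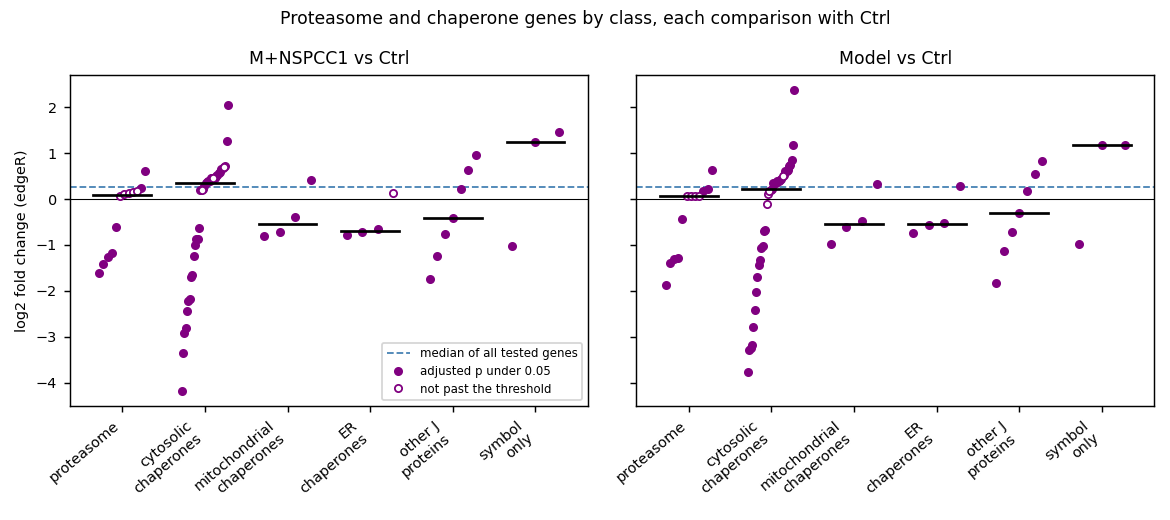
Log2 fold change of each tested gene by class, M+NSPCC1 against Ctrl on the left and Model against Ctrl on the right. Filled points had an edgeR adjusted p under 0.05, short bars are class medians and the dashed line is the median of all 7638 tested genes. Dnajc6, with no count in Ctrl, is left out of the points. In Model against Ctrl the mitochondrial and ER classes have medians of -0.54 and -0.55, and in the proteasome class Psme3 is the highest at 0.64, Psma3 is at -0.44 and 4 genes lie below -1.

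The proteasome genes in the files split by subunit type. They hold 2 of 8 Psma, 5 of 11 Psmb, 1 of 6 Psmc and 2 of 14 Psmd genes of the annotation. The 3 inducible catalytic subunits fell in both groups with the ageing model. Most of the other subunits in the files stayed close to Ctrl with TMM scaling. Of the 12 proteasome genes, 3 were higher, 5 lower and 4 not called in Model, and 2 were higher, 5 lower and 5 not called in M+NSPCC1. Over all tested genes 49.1% were higher and 41.4% lower in Model, and 50.1% and 43.1% in M+NSPCC1. Without the inducible subunits and Psme2b, the other 8 had a median log2 fold change of 0.07 in Model and 0.15 in M+NSPCC1, below the medians of 0.25 and 0.27 over all genes. With whole-library depth or limma, 7 of these 8 were called higher in both comparisons. Their median in Model with whole-library depth was 0.25, beside 0.43 over all genes.

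Psmb8, the inducible chymotrypsin-like subunit (chromosome 17, 34198195 to 34201454), had 68.1, 49.1, 46.5 and 45.1 CPM in M+NSPCC1, 44.03, 34.8, 91.9 and 33.2 CPM in Model and 129, 123, 141 and 109.8 CPM in Ctrl libraries. All 8 libraries with the ageing model lay below every Ctrl library, and Model 03 was the highest of them. The log2 fold change of Psmb8 against Ctrl was -1.30 in Model (SE 0.29, edgeR adjusted p = 0.00126) and -1.27 in M+NSPCC1 (SE 0.29, edgeR adjusted p = 0.00148). Psmb9, another inducible catalytic subunit from the same part of chromosome 17, had 15.9, 16.1, 13.03 and 13.1 CPM in M+NSPCC1, 11.6, 11.4, 20.2 and 11 CPM in Model and 37.05, 31.7, 32.7 and 30.2 CPM in Ctrl libraries. It was again lower in all 8 libraries, with log2 fold changes of -1.28 in Model and -1.18 in M+NSPCC1. Psmb10, the inducible trypsin-like subunit (chromosome 8, 105935728 to 105938392), had 38.1, 39.9, 29.2 and 26.9 CPM in M+NSPCC1, 34.6, 27.5, 50.1 and 24.9 CPM in Model and 94.1, 89.6, 97.7 and 77.8 CPM in Ctrl libraries. Its values did not overlap between Ctrl and either other group, and its log2 fold changes were -1.39 in Model (edgeR adjusted p = 8.03e-05) and -1.42 in M+NSPCC1 (edgeR adjusted p = 7.1e-05).

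Per length, the summed FPKM of the 3 inducible subunits was 0.156, 0.133, 0.112 and 0.106 of that of the constitutive ring subunits Psmb2 and Psmb4 in the M+NSPCC1 libraries, 0.116, 0.0890, 0.228 and 0.0953 in the Model libraries, and 0.377, 0.325, 0.374 and 0.289 in the Ctrl libraries. The ratio averaged 0.127 ± 0.0224 in M+NSPCC1, 0.132 ± 0.0652 in Model and 0.341 ± 0.0421 in Ctrl (SD, n = 4 each). Every Ctrl library was above every other library, and the ratio of Model 03 was the nearest to Ctrl. Scaling cancels in this ratio. All 12 listed interferon response genes in the files were also lower in Model, from Bst2 at -1.99 to Tap1 at -0.68 on the log2 scale, and their summed level was 343 to 509 CPM in M+NSPCC1, 282 to 619 CPM in Model and 710.1 to 1471 CPM in Ctrl libraries. All 7 leukocyte markers in the files (Ptprc, Cd52, Lyz2, Cd68, Adgre1, Cd3e and Itgam) were lower in Model too, with 584 to 983 CPM in M+NSPCC1, 489 to 1424 CPM in Model and 2530 to 3927 CPM in Ctrl libraries, and the highest of the Model libraries was again Model 03. None of the 7 averaged 0 in any group. The part of leukocytes in the fall of the inducible subunits was not tested, and in bulk tissue fewer cells of a type and less RNA per cell cannot be told apart.

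Of the constitutive ring subunits Psma2, Psmb2 and Psmb4 were not called against Ctrl and Psma3 was lower. Psmb4, a subunit of the beta ring, had 377, 391, 384 and 399.9 CPM in M+NSPCC1, 377, 407, 322 and 358 CPM in Model and 331, 355, 357 and 349 CPM in Ctrl libraries. The Model and Ctrl libraries overlapped, while all 4 M+NSPCC1 libraries lay above every Ctrl library, and its log2 fold changes of 0.07 in Model and 0.16 in M+NSPCC1 did not pass the threshold. Psma2 and Psmb2, of the alpha and the beta ring, and Psmd9, which helps to assemble the cap, were likewise not called in either comparison, with log2 fold changes from 0.06 to 0.08 in Model and from 0.06 to 0.18 in M+NSPCC1. With whole-library depth or limma all 4 of these genes were called higher in both comparisons, Psmb4 was called higher in M+NSPCC1 under 7 of the settings tried, and DESeq2 called Psma2 lower in Model (-0.10). Psma3, of the alpha ring, was lower, with 27.04, 23.2, 24.8 and 20.3 CPM in M+NSPCC1, 26.4, 28.6, 24.8 and 26.5 CPM in Model and 37.4, 32.3, 39.3 and 35.5 CPM in Ctrl libraries. All 8 libraries with the ageing model lay below the Ctrl libraries, and the log2 fold change was -0.44 in Model (SE 0.11, edgeR adjusted p = 0.00249) and -0.60 in M+NSPCC1 (SE 0.11, edgeR adjusted p = 0.00032). The value of Psma3 rests on 1 listed transcript with divided counts, and the gene overlaps 3110056K07Rik. Its mean estimated count in Ctrl was 331, beside 2156 for Psma2, so the fall may not be that of the whole gene. Per length, Psmb4 was the most abundant proteasome gene in Ctrl, with 371 ± 15.7 FPKM in M+NSPCC1, 343 ± 39.1 FPKM in Model and 288 ± 9.37 FPKM in Ctrl (SD, n = 4 each).

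Of the cap, Psmc5, an ATPase, had a log2 fold change of 0.23 in Model (SE 0.09, edgeR adjusted p = 0.0274) and 0.24 in M+NSPCC1 (SE 0.09, edgeR adjusted p = 0.0195). Psmd7, the partner of the cap's deubiquitinase, had 0.18 in Model (SE 0.07, edgeR adjusted p = 0.0373) and 0.14 in M+NSPCC1, where it was not called. These values lie below the medians of all genes, and neither gene was called in Model with DESeq2's size factors or without Ctrl 01. Psme3, the activator PA28 gamma of the nucleus (chromosome 11, 101316213 to 101323537), rose more, with 301, 269.6, 296 and 284 CPM in M+NSPCC1, 294, 316, 257 and 307 CPM in Model and 171, 182, 198 and 204 CPM in Ctrl libraries. Every library with the ageing model was above every Ctrl library, and Psme3 was called higher under each scaling tried. Its fold change on the log2 scale was 0.64 in Model (SE 0.08, edgeR adjusted p = 2.71e-05) and 0.61 in M+NSPCC1 (SE 0.08, edgeR adjusted p = 4.11e-05). Psme2b, a copy of the interferon-inducible activator gene Psme2 with which it may share reads, had at most 4.31 CPM in any library and a log2 fold change of -1.88 in Model and -1.62 in M+NSPCC1, and its reads are uncertain.

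**Figure D2:**
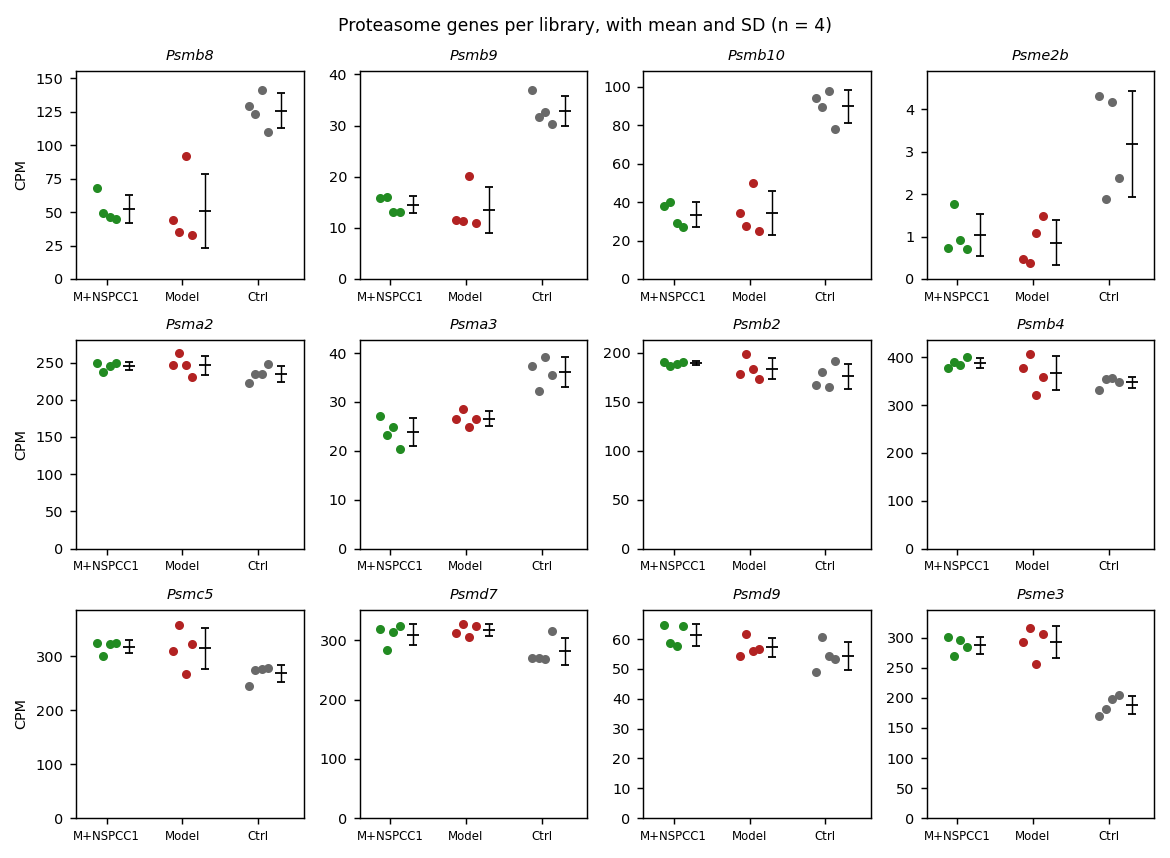
CPM of the 12 proteasome genes in each library (points), with the mean and SD of 4 libraries beside them, for M+NSPCC1, Model and Ctrl. The inducible subunits Psmb8, Psmb9 and Psmb10 are lower in all 8 libraries with the ageing model, with Model 03 the highest Model library. Psma2, Psmb2 and Psmb4 lie close to Ctrl with the TMM scaling shown.

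All 7 CCT chaperonin genes matched by symbol were higher than Ctrl in Model and in M+NSPCC1, beside 49.1% and 50.1% of all tested genes. Their log2 fold changes ran from 0.21 to 0.72 in Model, with a median of 0.40, and from 0.22 to 0.72 in M+NSPCC1, with a median of 0.46. Cct2 moved most (chromosome 10, 117050997 to 117063852), with 553, 567, 564 and 605 CPM in M+NSPCC1, 611, 628, 451 and 605 CPM in Model and 331, 332, 370.0 and 359 CPM in Ctrl libraries. The groups with the ageing model lay above Ctrl without overlap, and Model 03 stood apart below the other 3 Model libraries. For Cct2 the log2 fold change was 0.72 in Model (SE 0.10, edgeR adjusted p = 4.49e-05) and 0.72 in M+NSPCC1 (SE 0.10, edgeR adjusted p = 4.89e-05). Cct4 moved least, with 347, 381, 357 and 350.2 CPM in M+NSPCC1, 367, 381, 339 and 336 CPM in Model and 304, 283, 324 and 322 CPM in Ctrl libraries. Its log2 fold change of 0.21 in Model (SE 0.07, edgeR adjusted p = 0.0155) was below the median of all genes, and it lost the call with DESeq2's size factors and without Ctrl 02. Cct3, Cct5, Cct6a, Cct7 and Cct8 lay between, from 0.34 to 0.63 in Model. Cct5 and Cct8 overlapped between Model and Ctrl through Model 03 alone. In Model the CCT median was 0.40 beside 0.25 over all genes with TMM. It was 0.23 beside 0.08 with DESeq2's size factors and 0.58 beside 0.43 with whole-library depth. A change of scaling moves all genes by about the same amount, so this gap could not differ between scalings. The calls did differ, with 4 of 7 called with DESeq2's size factors and all 7 with whole-library depth.

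CCT subunits stand in equal number in the complex, so their levels were also compared per length. Within a library the mean FPKM over the 7 genes was 149.9 to 160.4 in M+NSPCC1, 119.9 to 165.1 in Model and 89.2 to 103.1 in Ctrl libraries. The highest of the 7 exceeded the lowest by 1.54- to 1.69-fold in M+NSPCC1, by 1.54- to 1.76-fold in Model and by 1.64- to 1.84-fold in Ctrl libraries. Cct2 was the highest in all 8 libraries with the ageing model and Cct5 in all 4 Ctrl libraries. Tcp1, which encodes the alpha subunit, is not matched by the symbol rule. It had a log2 fold change of 0.18 in Model, which was not called, and of 0.27 in M+NSPCC1, which was (edgeR adjusted p = 0.00897).

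**Figure D3:**
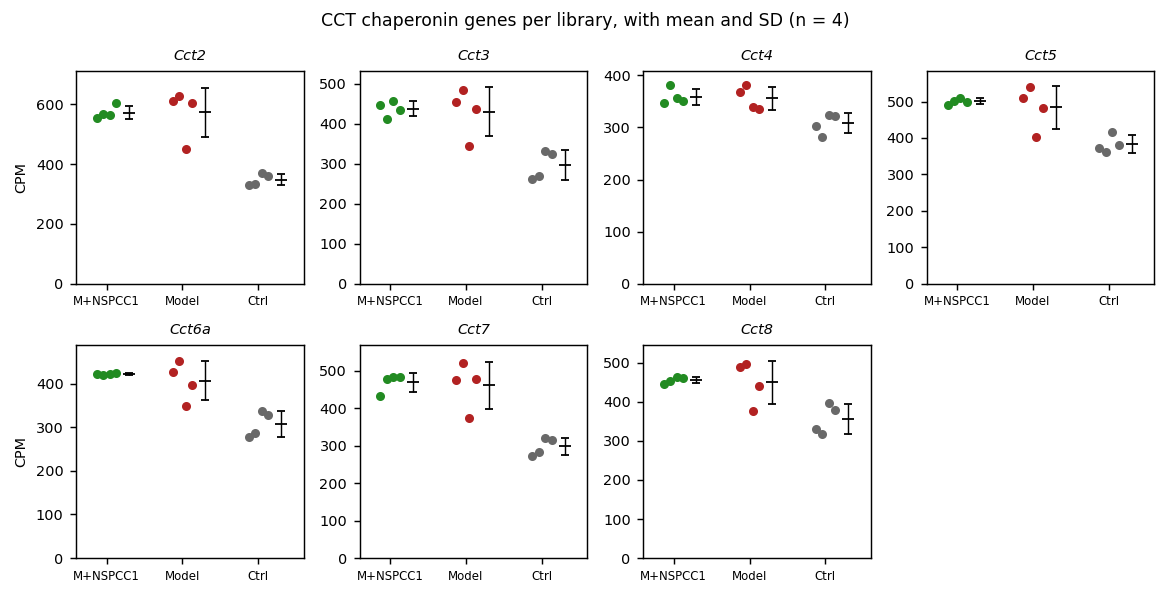
CPM of the 7 CCT chaperonin genes in each library (points), with the mean and SD of 4 libraries, for M+NSPCC1, Model and Ctrl. Each gene is higher in the groups with the ageing model than in Ctrl, and Model 03 is the lowest Model library in all but Cct4.

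Cell division genes moved in the same direction as CCT. All 18 listed genes were higher in Model, with summed levels of 2644 to 3132 CPM in M+NSPCC1, 1600 to 3109 CPM in Model and 449.5 to 569 CPM in Ctrl libraries, and all 17 listed hair shaft and inner root sheath genes in the files were higher as well, with 33854 to 60890 CPM in M+NSPCC1, 49327 to 78031 CPM in Model and 10.3 to 356 CPM in Ctrl libraries. Their part in the rise of CCT was not tested.

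The 3 HSP90 and HSP110 genes in the files were, like CCT, higher in each comparison. Over all tested genes 49.1% were higher in Model and 50.1% in M+NSPCC1, and 3 genes are too few to be set apart from those shares. Hsp90ab1 and Hsph1 were not analysed here. Hsp90aa1, the stress-inducible cytosolic HSP90 (chromosome 12, 110691036 to 110696395), had 591, 747, 764 and 662 CPM in M+NSPCC1, 797, 762, 582 and 647 CPM in Model and 352, 378, 531 and 569.6 CPM in Ctrl libraries. The lowest Model library lay just above the highest Ctrl library, and Ctrl 01 and Ctrl 02 were well below Ctrl 03 and Ctrl 04. Its rise on the log2 scale was 0.61 in Model (SE 0.17, edgeR adjusted p = 0.00487) and 0.59 in M+NSPCC1 (SE 0.17, edgeR adjusted p = 0.00542). Of the HSP110 exchange factors, Hspa4 had a log2 fold change of 0.35 and Hspa4l of 0.74 in Model, and 0.39 and 0.47 in M+NSPCC1, all 4 called. Hspa4 lost its call in Model with DESeq2's size factors.

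Of the 5 HSP70 genes in the files, 2 were higher and 3 lower in each comparison with Ctrl. Over all tested genes 49.1% were higher and 41.4% lower in Model, and 50.1% and 43.1% in M+NSPCC1. The 5 genes are too few to be set apart from those shares. Hspa2, best known for its role in male germ cells (chromosome 12, 76403812 to 76406938), had 59.1, 78.6, 96.5 and 84.3 CPM in M+NSPCC1, 91.2, 137, 71.8 and 100.3 CPM in Model and 16.8, 21.9, 18.4 and 19.6 CPM in Ctrl libraries. Each library with the ageing model was above each Ctrl library, and the log2 fold change was 2.39 in Model (SE 0.21, edgeR adjusted p = 1.14e-06) and 2.05 in M+NSPCC1 (SE 0.20, edgeR adjusted p = 3.73e-06). Hspa14, the HSP70 that sits on the ribosome, had 135, 149, 166 and 161 CPM in M+NSPCC1, 133, 183, 118 and 143 CPM in Model and 62.4, 63.7, 65.1 and 62.1 CPM in Ctrl libraries. It rose without overlap, by 1.19 in Model and 1.27 in M+NSPCC1 on the log2 scale. Dnajc2, its J partner on the ribosome, rose less, with 0.39 in Model and 0.45 in M+NSPCC1.

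Hspa1l, a constitutive testis form of the inducible HSP70 (chromosome 17, 34972703 to 34979228), had 7.43, 5.56, 2.28 and 6.13 CPM in M+NSPCC1, 4.92, 1.39, 6.35 and 3.91 CPM in Model and 37.6, 45.8, 30.5 and 49.3 CPM in Ctrl libraries. It was lower in all 8 libraries, with a log2 fold change of -3.30 in Model (SE 0.43, edgeR adjusted p = 2.81e-05) and -2.93 in M+NSPCC1 (SE 0.43, edgeR adjusted p = 6.13e-05), but it resembles Hspa1a and Hspa1b and may share their reads. Hspa12a and Hspa12b, distant HSP70 relatives, had log2 fold changes of -1.44 and -1.69 in Model and -1.70 and -1.67 in M+NSPCC1. Hspa12b is known from endothelial cells, and all 5 endothelial markers were lower in Model, with summed levels of 179.8 to 218 CPM in M+NSPCC1, 125 to 341 CPM in Model and 679 to 783 CPM in Ctrl libraries, none of them at 0. Their part in the fall of Hspa12b was not tested. Hspbp1, an exchange factor that inhibits HSP70, was not called in either comparison (0.12 in Model and 0.20 in M+NSPCC1).

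The small heat shock proteins, which hold unfolding proteins in solution without ATP, fell most. All 5 in the files were lower in both groups with the ageing model, beside 41.4% of all tested genes in Model and 43.1% in M+NSPCC1. Their median log2 fold change was -3.19 in Model and -2.81 in M+NSPCC1. Hspb6, known from muscle (chromosome 7, 30552535 to 30555443), was the most abundant member per length in Ctrl, with 101 ± 34.2 FPKM in M+NSPCC1, 75.5 ± 30.3 FPKM in Model and 614 ± 99.8 FPKM in Ctrl (SD, n = 4 each). Its counts were 231, 199, 91.1 and 160.2 CPM in M+NSPCC1, 139, 76.4, 205 and 102 CPM in Model and 1287, 991, 1099.8 and 1389 CPM in Ctrl libraries. The highest library with the ageing model was far below the lowest Ctrl library, and the log2 fold change was -3.19 in Model (SE 0.34, edgeR adjusted p = 5.59e-06) and -2.81 in M+NSPCC1 (SE 0.33, edgeR adjusted p = 1.41e-05).

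Hspb7, a heart and muscle form that binds actin (chromosome 4, 141420779 to 141425310), had 182, 123, 38.1 and 145 CPM in M+NSPCC1, 139, 110.0, 165 and 114 CPM in Model and 1236, 1016, 871 and 1871 CPM in Ctrl libraries. It too showed no overlap with Ctrl, with log2 fold changes of -3.24 in Model and -3.36 in M+NSPCC1. Hspb3, another muscle form, had 1.28, 0.834, 1.09 and 0.888 CPM in M+NSPCC1, 1.52, 0.649, 2.88 and 0.466 CPM in Model and 18.6, 19.1, 16.4 and 21.3 CPM in Ctrl libraries. In all 8 libraries with the ageing model it was near the low end of detection, and its log2 fold changes were -3.77 in Model and -4.18 in M+NSPCC1. Hspb2 fell by a log2 fold change of -2.80 in Model and -2.44 in M+NSPCC1, but it overlaps Cryab, which also fell (-1.95 in Model), so their reads may be mixed. Hspb8, which works with Bag3 and is found in many tissues, fell least, with 243, 331, 345 and 319 CPM in M+NSPCC1, 307, 414, 362 and 328 CPM in Model and 541, 522, 537 and 674 CPM in Ctrl libraries. All 8 libraries were below Ctrl, and its log2 fold change was -0.69 in Model (SE 0.13, edgeR adjusted p = 0.000468) and -0.88 in M+NSPCC1 (SE 0.13, edgeR adjusted p = 8.58e-05).

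Skeletal muscle genes fell by a like amount. All 18 markers were lower in both comparisons, with log2 fold changes from -3.47 to -2.74 and a median of -3.19 in Model. Their summed level was 12292 to 18972 CPM in M+NSPCC1, 5305 to 17763 CPM in Model and 92824 to 100560 CPM in Ctrl libraries, none of them at 0 on average, and their share of the summed count was 1.64% ± 0.340 in M+NSPCC1, 1.11% ± 0.633 in Model and 8.98% ± 0.195 in Ctrl (SD, n = 4 each). The summed level of Hspb2, Hspb3, Hspb6 and Hspb7 was 138 to 426 CPM in M+NSPCC1, 193 to 384 CPM in Model and 2040 to 3346 CPM in Ctrl libraries. The part of muscle in the fall of these genes was not tested.

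**Figure D4:**
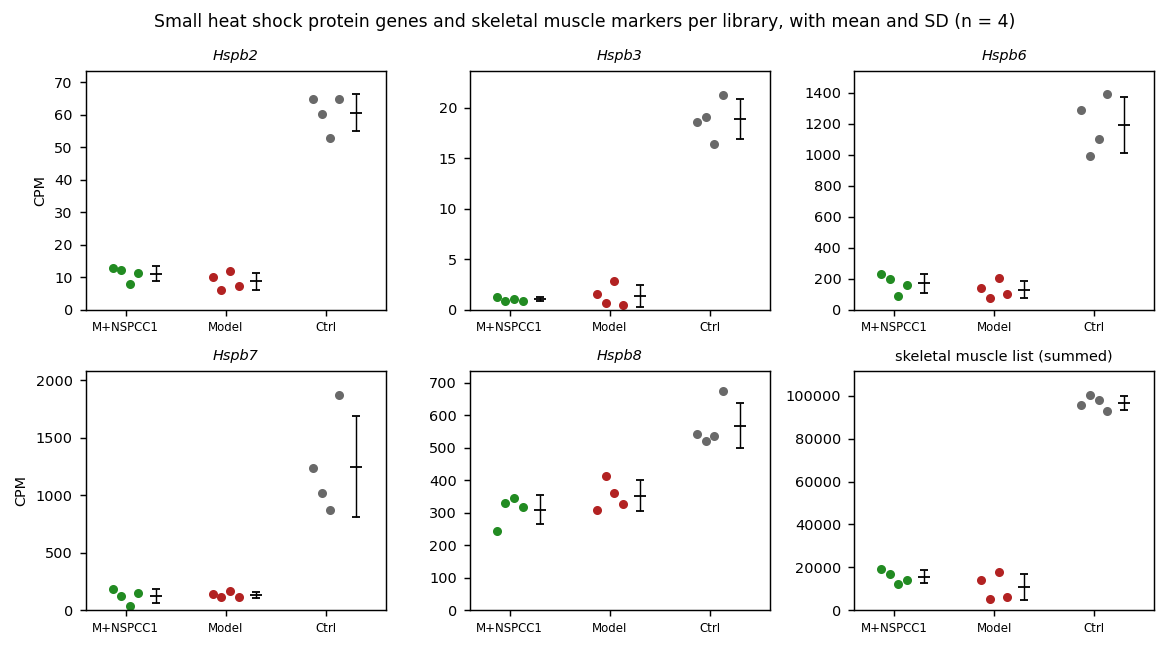
CPM of the 5 small heat shock protein genes and, in the last panel, summed CPM of 18 skeletal muscle markers in each library (points), with the mean and SD of 4 libraries, for M+NSPCC1, Model and Ctrl. Hspb2, Hspb3, Hspb6, Hspb7 and the muscle sum are low in all 8 libraries with the ageing model, and Hspb8 lies closer to Ctrl.

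Among the 13 cytosolic J protein genes, 7 were higher, 4 lower and 2 not called in each comparison with Ctrl. Over all tested genes 49.1% were higher and 41.4% lower in Model, and 50.1% and 43.1% in M+NSPCC1, so the share higher is near that of the tables. Dnajb1, the main stress-inducible J partner of HSP70, had 160.2, 164, 175 and 150.3 CPM in M+NSPCC1, 179.5, 164, 194 and 159 CPM in Model and 111, 107, 103 and 137 CPM in Ctrl libraries. It was above Ctrl in every library with the ageing model, with a log2 fold change of 0.60 in Model (SE 0.10, edgeR adjusted p = 0.000152) and 0.50 in M+NSPCC1 (SE 0.10, edgeR adjusted p = 0.000558). Dnaja1 rose by 0.45 in Model and 0.38 in M+NSPCC1, and Dnajb6, which suppresses protein aggregation, by 0.42 in Model and 0.52 in M+NSPCC1. Dnaja2 rose by 0.22 in Model and 0.19 in M+NSPCC1, below the median of all genes.

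Dnajb5 showed the strongest fall of the cytosolic J proteins in Model (chromosome 4, 42949867 to 42959425), with 29.2, 28.8, 28.1 and 27.3 CPM in M+NSPCC1, 25.7, 17.5, 29.9 and 22.6 CPM in Model and 136, 126, 115 and 133 CPM in Ctrl libraries. It was lower in all 8 libraries, and its log2 fold change was -2.42 in Model (SE 0.14, edgeR adjusted p = 8e-08) and -2.17 in M+NSPCC1 (SE 0.14, edgeR adjusted p = 1.93e-07). Dnaja4 (chromosome 9, 54698848 to 54716317), whose promoter holds the heat shock letters in the window shown above and once more closer to its start, had 59.4, 49.98, 43.3 and 53.7 CPM in M+NSPCC1, 60.98, 45.5, 83.3 and 48.1 CPM in Model and 217, 229, 193 and 323 CPM in Ctrl libraries. Neither group with the ageing model overlapped Ctrl, and Dnaja4 fell by a log2 fold change of -2.02 in Model and -2.22 in M+NSPCC1. Dnajb4 fell as well, by -1.33 in Model and -1.23 in M+NSPCC1, and Dnajc12, which binds aromatic amino acid hydroxylases, by -1.02 in Model and -0.87 in M+NSPCC1. Heat shock letters in the promoter stood beside both a rise of Dnaja1 and Dnajb6 and a fall of Dnaja4 and Dnajb4.

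Dnajc6, the clathrin uncoating factor auxilin (chromosome 4, 101496648 to 101642799), had 5.78, 9.92, 14.3 and 4.79 CPM in M+NSPCC1, 5.97, 6.58, 9.33 and 8.76 CPM in Model and 0, 0, 0 and 0 CPM in Ctrl libraries. With no count in any Ctrl library, it was at least 106-fold higher in M+NSPCC1 and at least 93.3-fold higher in Model, bounds set by 3 counts over the Ctrl group that cover counting error only. Dnajc7, a J protein that passes clients between HSP70 and HSP90 (chromosome 11, 100582818 to 100620292), rose at the gene level by 0.85 in Model and 0.67 in M+NSPCC1, but its pair of listed transcripts moved in opposite directions. The first had estimated counts of 961, 1256, 1459 and 1299.9 in M+NSPCC1, 1262, 1986, 1256 and 1738 in Model and 80.2, 27.5, 80.4 and 26.8 in Ctrl libraries. The second had 646, 518, 663 and 598 in M+NSPCC1, 555, 545, 234 and 515 in Model and 875, 860.2, 997 and 948 in Ctrl libraries. In Ctrl the second transcript held most of the gene's count, and in all 8 other libraries the first did, as far as the division of reads among isoforms can be relied on. Their log2 fold changes in Model were 4.68 and -1.17 (edgeR adjusted p = 7.11e-07 and 0.000309 over all tested transcripts). At the gene level Dnajb2 was not called, with 5.11 CPM in Model 01 and 25.7 to 29.0 CPM in the other 3 Model libraries. Its 2 listed transcripts also moved in opposite directions. The first had log2 fold changes of 1.22 in Model, not called, and 1.44 in M+NSPCC1 (edgeR adjusted p = 0.0433). The second had -1.29 in Model (edgeR adjusted p = 0.0124) and -1.14 in M+NSPCC1 (edgeR adjusted p = 0.0209). Dnajc5, the cysteine string protein, was not called in either comparison (-0.10 in Model and 0.46 in M+NSPCC1).

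The BAG genes encode exchange factors that release clients from HSP70. Bag3, which with Hspb8 directs damaged proteins to autophagy, had 148, 116, 108 and 119 CPM in M+NSPCC1, 128, 99.4, 145 and 99.2 CPM in Model and 234, 245, 212 and 295 CPM in Ctrl libraries. All 8 libraries with the ageing model were below Ctrl, with a log2 fold change of -1.06 in Model (SE 0.15, edgeR adjusted p = 5.27e-05) and -1.01 in M+NSPCC1 (SE 0.15, edgeR adjusted p = 8.08e-05). Bag1, which links HSP70 to the proteasome, had 253, 255, 234 and 243 CPM in M+NSPCC1, 239, 240.3, 271 and 215 CPM in Model and 383, 379.8, 360.0 and 409 CPM in Ctrl libraries, with log2 fold changes of -0.67 in Model and -0.64 in M+NSPCC1 and no overlap with Ctrl. Bag5 was not called in Model (0.18) and was called in M+NSPCC1 (0.27, edgeR adjusted p = 0.016). Bag6 had 1.47, 0, 4.74 and 0.977 CPM in the M+NSPCC1 libraries and a rounded count of 0 elsewhere. The transcript listed for it is the only one of the gene in the files, so its other transcripts were not analysed here.

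Of the 4 mitochondrial chaperones 3 were lower in each comparison with Ctrl, beside 41.4% of all tested genes in Model and 43.1% in M+NSPCC1, a class too small to be set apart from those shares. Hspa9, the mitochondrial HSP70 mortalin, had 615, 544, 522 and 536 CPM in M+NSPCC1, 539.8, 561, 489.7 and 492 CPM in Model and 668, 705, 760.0 and 763 CPM in Ctrl libraries. All 8 libraries with the ageing model were below Ctrl, and the log2 fold change was -0.48 in Model (SE 0.08, edgeR adjusted p = 0.000198) and -0.38 in M+NSPCC1 (SE 0.08, edgeR adjusted p = 0.000873). Dnaja3, its J partner in the matrix, had log2 fold changes of -0.60 in Model and -0.71 in M+NSPCC1. Dnajc15, of the inner membrane, had 25.1, 32.8, 29.2 and 35.5 CPM in M+NSPCC1, 24.6, 26.04, 34.6 and 24.2 CPM in Model and 55.3, 52.1, 53.6 and 54.2 CPM in Ctrl libraries and fell by a log2 fold change of -0.97 in Model and -0.81 in M+NSPCC1. Dnajc11, of the outer membrane contact sites, was the exception, with 0.33 in Model and 0.41 in M+NSPCC1. Under the DESeq2 size factors Dnajc11 lost its call in Model, and with whole-library depth Hspa9 lost its call in M+NSPCC1. The falls of Hspa9, Dnaja3 and Dnajc15 are larger relative to the median of all genes, which was above 0 under each scaling tried.

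Of the 4 ER genes 3 were lower in each comparison, beside the same shares of all tested genes, and this class too is too small to be set apart from them. Dnajc3, a J protein that curbs the kinase PERK, had 157, 168, 163 and 149 CPM in M+NSPCC1, 196, 152, 204 and 157 CPM in Model and 228, 236, 295 and 289 CPM in Ctrl libraries. It was below Ctrl in all 8 libraries, with a log2 fold change of -0.56 in Model (SE 0.12, edgeR adjusted p = 0.000836) and -0.72 in M+NSPCC1 (SE 0.12, edgeR adjusted p = 0.000155). Pdia5, a disulfide isomerase, had 24.02, 18.2, 18.8 and 19.6 CPM in M+NSPCC1, 18.6, 15.7, 25.2 and 17.1 CPM in Model and 33.5, 31.7, 31.9 and 30.1 CPM in Ctrl libraries. Neither group with the ageing model overlapped Ctrl, and its log2 fold changes were -0.73 in Model and -0.66 in M+NSPCC1. Dnajc18, a J protein of the ER membrane, had -0.53 in Model, where a Model library reached into the Ctrl range and the call was lost with limma, and -0.77 in M+NSPCC1. Dnajc14 was higher in Model (0.28, edgeR adjusted p = 0.00823) and not called in M+NSPCC1 (0.13). The direct comparison of M+NSPCC1 with Model gave -0.15, which was not called.

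Of the 7 J proteins with other duties 3 were higher and 4 lower in Model, near the shares of 49.1% and 41.4% over all tested genes. Dnajc9, a histone chaperone, had 76.4, 87.6, 91.3 and 93.2 CPM in M+NSPCC1, 82.2, 87.1, 68.5 and 78.3 CPM in Model and 43.5, 44.2, 46.3 and 44.1 CPM in Ctrl libraries. It rose without overlap, by 0.83 in Model and 0.97 in M+NSPCC1 on the log2 scale. Dnajc17 and Dnajc8, of the splicing machinery, rose by 0.54 and 0.19 in Model, and the call of Dnajc8 was lost with DESeq2's size factors. Dnajc27, a small GTPase with a J domain, had 19.3, 15.9, 13.2 and 14.03 CPM in M+NSPCC1, 14.5, 13.99, 16.6 and 13.9 CPM in Model and 48.00, 55.1, 49.8 and 56.3 CPM in Ctrl libraries. Its log2 fold change was -1.83 in Model (SE 0.13, edgeR adjusted p = 3.48e-07) and -1.74 in M+NSPCC1 (SE 0.13, edgeR adjusted p = 5.38e-07). Dnajc4, Dnajc25 and Dnajc21 were lower too, with -1.14, -0.71 and -0.31 in Model. Of the genes matched by symbol only, Hspg2, which encodes the basement membrane proteoglycan perlecan, was lower (-0.97 in Model and -1.02 in M+NSPCC1), and Psmc3ip, a meiotic recombination factor, and Hspbap1 were higher (1.18 and 1.18 in Model).

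Partner genes outside the symbol rule were counted from a list of cofactors and regulators, of which 21 were in the files. In Model 7 were higher, 11 lower and 3 not called, and in M+NSPCC1 8 were higher, 11 lower and 2 not called, beside 49.1% higher and 41.4% lower over all tested genes in Model and 50.1% and 43.1% in M+NSPCC1. The smallest p among those higher in Model belonged to Unc45a, a myosin chaperone (1.11), Grpel2, a mitochondrial exchange factor (0.62), and Uchl5, a deubiquitinase of the proteasome cap (0.59). Among those lower they belonged to Hsf2, a heat shock factor (-1.25), Unc45b, the muscle form of the myosin chaperone (-3.23), and Ddit3, the transcription factor CHOP of the ER stress response (-1.12). Chosen after their values were seen, Nfe2l1, a transcription factor known for driving proteasome genes, was lower (-1.50), as were Herpud1 (-0.90) and Sel1l (-0.52) of ER-associated degradation and Serpinh1, the collagen chaperone of the ER (-1.36). Ubb, a ubiquitin gene, was not called (-0.02).

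M+NSPCC1 was set against Model to ask whether the extract changed these genes in the ageing model. No tested member passed the threshold by edgeR, as was so for all 7638 tested genes (0%), nor by DESeq2, which called 0.95% of all genes with a p there, nor by limma on log2(FPKM + 1). At an unadjusted p under 0.05 edgeR gave 1 member, Hspa4l, beside 6.57% of all tested genes, and DESeq2 gave 2. Hspa4l had 66.1, 52.9, 57.9 and 52.9 CPM in M+NSPCC1, 69.4, 63.9, 69.2 and 74.3 CPM in Model and 41.3, 42.7, 42.6 and 39.6 CPM in Ctrl libraries. M+NSPCC1 values were lower but overlapped those of Model, with a log2 fold change of -0.27 (edgeR unadjusted p = 0.00995, adjusted p = 0.605). Dnajc21, which serves ribosome assembly, was the only member whose M+NSPCC1 and Model libraries did not overlap, beside 4.19% of all tested genes, with 58.1, 57.8, 57.02 and 53.2 CPM in M+NSPCC1, 61.2, 60.8, 59.3 and 59.1 CPM in Model and 67.1, 75.5, 78.04 and 78.3 CPM in Ctrl libraries. Its log2 fold change was small (-0.09, edgeR adjusted p = 0.928) and pointed away from Ctrl.

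The members had a median log2 fold change of 0.03 between M+NSPCC1 and Model, with a range from -0.42 (Hspb3) to 0.56 (Dnajc5). The 95% confidence interval left out a 2-fold change either way in 60 of 67 members, and a 1.5-fold change in 52. For the 7 CCT genes the log2 fold changes lay at most 0.06 from 0, for the inducible subunits between -0.03 and 0.10, and for the small heat shock proteins between -0.42 and 0.38. After Hspa4l, the smallest p were those of Dnajb5 (0.25), Dnajc5 (0.56), Dnajc14 (-0.15), Hspa2 (-0.33) and Dnajc18 (-0.25), with edgeR adjusted p from 0.814 to 0.861. Without Model 03 there were again no calls among the members, but the estimates shifted. The CCT median moved from 0.03 to -0.06, and all 7 CCT genes were below 0. With each library left out in turn, Psmb8 ran from -0.12 to 0.48, Psmb9 from 0.02 to 0.36 and Psmb10 from -0.16 to 0.21.

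**Figure D5:**
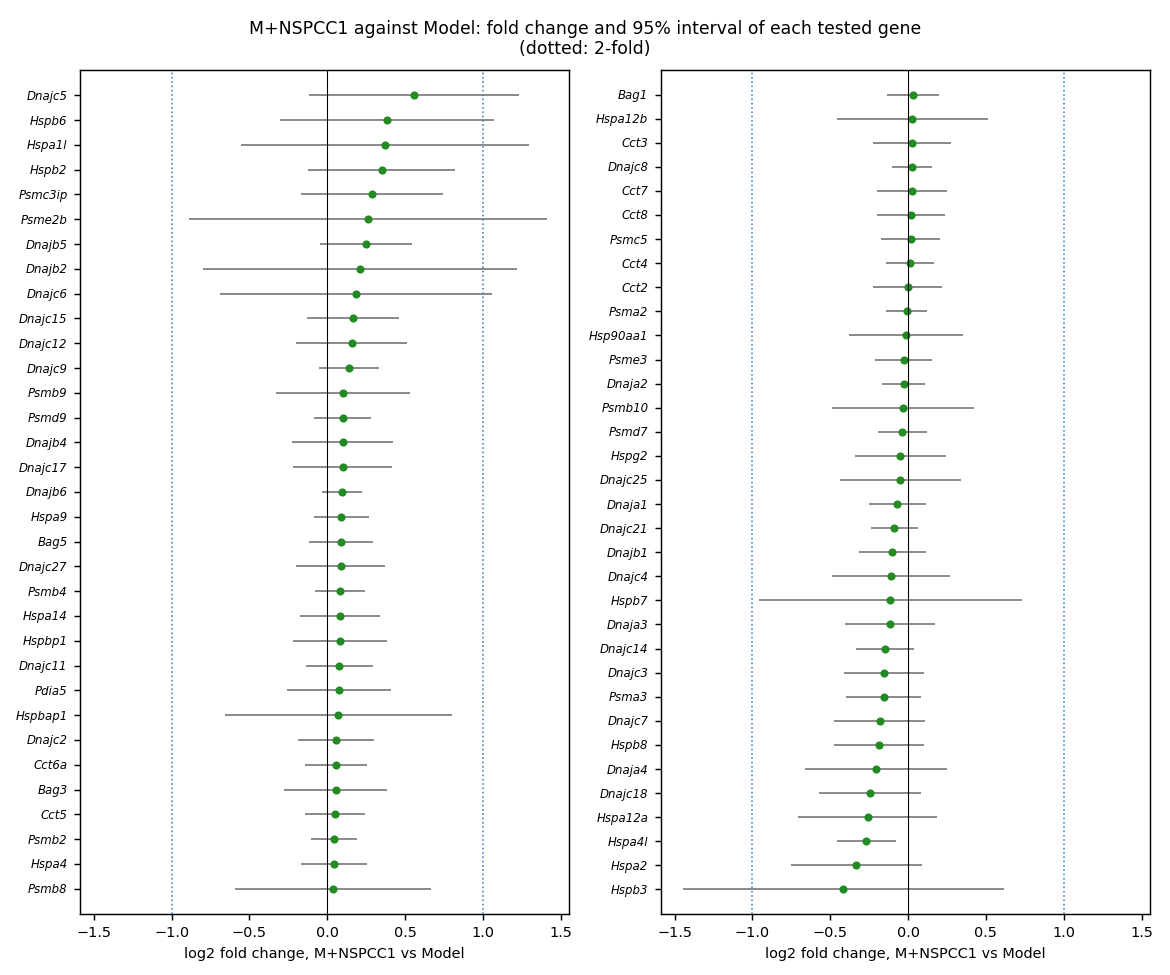
Log2 fold change of M+NSPCC1 against Model with its 95% confidence interval for each of the 67 tested genes, from the highest at the top left to the lowest at the bottom right. Dotted lines mark a 2-fold change. The interval lies within these lines for 60 genes, and that of Hspa4l alone leaves out 0.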

How the data were processed

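Skin RNA was made into messenger RNA libraries (per the labels' protocols), and the 12 libraries were grouped by their titles. The authors deposited an estimated count and an FPKM value (a level per transcript length and per library size) for 10720 transcripts of 7902 genes. Per the submitters' processing notes, the build was mm10 and the tools were HISAT2 2.2.1, RSEM 1.3.1 and DESeq2 1.34.0, with no roles given. How transcripts were selected for deposit is not stated in the labels. Of the deposited count values 68% were not whole (tolerance 0.011), as when reads are divided among isoforms, and 57 of the 68 genes had 1 transcript in the files.

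Estimated counts were summed by gene ID and rounded. The main test was edgeR 4.0.16 in R 4.3.3 (quasi-likelihood fit, TMM factors, default filter, all 12 libraries, a coefficient per group), with Benjamini-Hochberg adjustment over 7638 genes. Positive log2 fold changes are higher in the first-named group. Class counts and medians are descriptions with no test. Alternatives were DESeq2 1.42.0 and its size factors, whole-library depth (from the ratio of count to FPKM, relative depth 0.967 to 1.03), other filters, 8 libraries only, a replicate block, each library left out, limma 3.58.1 on log2(FPKM + 1) or log2(FPKM + 0.1), and single transcripts. The added constant shrinks fold changes of weakly expressed genes. The steps were tested on simulated data.

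The genes, classes and marker lists were chosen with earlier results of these data known. Genes named were the highest, lowest and most abundant of each type, a fixed set and those with the smallest p. Other members were named after their values were seen, so that each is accounted for.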

Additional observations from a re-analysis of the deposited data

Results flagged for a closer look

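In 7 of 140 groups of 4 libraries examined (gene and group), the lowest or highest library stood apart from the other 3 by more than Dixon's 95% critical share of the group's range. Chance flags about 1 in 20 groups, and 7 of 140 is that share. In Model 03, Cct2 was at 451 CPM against 604.6 to 628 CPM in the other Model libraries, and Psmb9 was at 20.24 CPM against 11 to 11.55 CPM. Both values lie on the side of Ctrl. Psmc5 was low in M+NSPCC1 02, with 300.3 CPM against 322.3 to 324.5 CPM, and in Ctrl 01, with 244.6 CPM against 274.5 to 277.9 CPM. Hspbap1 was high in M+NSPCC1 04, with 14.38 CPM against 9.992 to 10.29 CPM. In Ctrl 04 Psmd7 was at 316.2 CPM against 268.1 to 271 CPM, and Hspb8 was at 673.6 CPM against 521.7 to 541.5 CPM in the other Ctrl libraries.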

How the results depend on the processing

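The count of members lower than Ctrl ran from 28 to 31 in Model and from 29 to 30 in M+NSPCC1 over all settings that used genes. Of the 79 member transcripts tested, 41 were lower in each comparison. That is a count of transcripts and not of genes, and 4 of the genes hold transcripts with identical values. No setting gave a call among the members in M+NSPCC1 against Model. Counts of higher members moved with the scaling. In Model against Ctrl, 29 higher members became 18 with DESeq2's size factors and 19 with DESeq2. Higher proteasome genes there numbered 3, against 1 with DESeq2's size factors, DESeq2 or only the 8 libraries compared, and 7 with whole-library depth or any of the 3 limma fits. The single higher ER gene and the single higher mitochondrial gene became 0 with DESeq2's size factors and with DESeq2. In M+NSPCC1 against Ctrl, 2 higher proteasome genes became 1 with DESeq2's size factors or DESeq2, 5 from single transcripts, 6 with only the 8 libraries, and 7 with whole-library depth or limma. No ER gene was higher there, and 1 was with whole-library depth or limma.

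With each library left out in turn, higher members ranged from 27 to 31 in Model and from 28 to 33 in M+NSPCC1. Higher proteasome genes ranged from 1 (without Ctrl 01 or Model 04) to 3 in Model, and from 1 (without Ctrl 01) to 6 (without Model 02) in M+NSPCC1. Higher ER genes in M+NSPCC1 ranged from 0 to 1 (without Ctrl 01). Psma2 changed sign in Model with DESeq2, to -0.10 (adjusted p = 0.0484), and sign changes of genes called under neither setting were not counted. Of the other values of named members, 68 gained and 41 lost a call in some setting.

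With the replicate number as a block, 29 members were higher and 30 lower in Model, 28 and 30 in M+NSPCC1, and 0 were called between M+NSPCC1 and Model. Deviations of libraries with the same number correlated at -0.162 to 0.119, and not every library correlated best with its own number, so the numbers do not pair the samples. Precision is limited for genes with few counts, such as Psme2b and Bag6. Reads divided among isoforms limit single transcripts, and isoforms outside the files were not analysed here.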
